A study of Mus musculus with 6 samples.

Results

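The 10 genes described here carry the epithelial to mesenchymal transition (EMT): the transcription factors Snai1, Snai2, Twist1, Zeb1 and Zeb2, the epithelial adhesion genes Cdh1 and Epcam, and the mesenchymal genes Cdh2, Vim and Fn1. They were chosen by symbol from the 23353 genes in the expression table. mRNA was sequenced from day 4 embryoid bodies (EBs, clusters of stem cells that differentiate in suspension) of mouse embryonic stem cells, in 3 wildtype and 3 EVX1-Δfs libraries. The comparison addresses whether loss of functional EVX1, a homeodomain protein of the posterior primitive streak, alters this programme. Wildtype cells were the parental, non-edited W9.5 line. EVX1-Δfs was clone 14, a single CRISPR-Cas9 edited W9.5 clone with small frameshift deletions on both alleles of Evx1, in the part of exon 2 that encodes the homeodomain. All 6 cultures were grown in medium with serum, without LIF, for 4 days, and the replicates of a genotype were separate differentiations begun on different days. With 1 clone, an effect of the edit and a property of the clone cannot be told apart.

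In EMT, cells of an epithelial sheet lose their cell to cell junctions and polarity and become motile. At gastrulation epiblast cells do this in the primitive streak, where SNAI1 represses Cdh1, and the cells that leave it form mesoderm and definitive endoderm. SNAI, TWIST and ZEB proteins bind DNA at E-box motifs, and the exchange of E-cadherin for N-cadherin with a gain of vimentin and fibronectin is the classical readout.

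The sequences shown first are the edited site and the upstream regions of the members whose levels the results turn on. The guide matched exon 2 of Evx1 at chr6:52265847-52265866 on the plus strand of NCBIM37, the assembly of mm9, and the capitals mark the PAM.
Evx1 guide site: ccagatgcgccgataccgcaCGG
The regions below are the 250 bases before the start site of each gene, from RefSeq on GRCm38.p6, with each E-box of the letters CACCTG, on either strand, in capitals. Snai1 lies at chr2:167537945-167538194 (plus strand), Twist1 at chr12:33957421-33957670 (plus strand), Vim at chr2:13574061-13574310 (plus strand) and Epcam at chr17:87635729-87635978 (plus strand).
Snai1: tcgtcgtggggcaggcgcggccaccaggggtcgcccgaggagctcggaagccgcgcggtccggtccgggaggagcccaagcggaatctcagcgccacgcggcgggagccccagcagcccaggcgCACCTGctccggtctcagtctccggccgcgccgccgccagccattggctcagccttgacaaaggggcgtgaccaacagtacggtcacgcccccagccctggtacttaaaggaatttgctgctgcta
Twist1: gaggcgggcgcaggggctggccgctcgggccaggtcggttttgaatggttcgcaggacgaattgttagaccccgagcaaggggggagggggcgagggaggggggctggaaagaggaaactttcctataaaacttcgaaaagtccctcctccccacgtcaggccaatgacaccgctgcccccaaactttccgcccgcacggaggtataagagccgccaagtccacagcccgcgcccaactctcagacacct
Vim: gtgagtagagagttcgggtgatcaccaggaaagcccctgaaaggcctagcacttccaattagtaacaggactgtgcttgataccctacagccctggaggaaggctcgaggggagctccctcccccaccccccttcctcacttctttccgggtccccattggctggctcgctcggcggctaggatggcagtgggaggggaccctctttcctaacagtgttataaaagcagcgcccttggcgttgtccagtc
Epcam: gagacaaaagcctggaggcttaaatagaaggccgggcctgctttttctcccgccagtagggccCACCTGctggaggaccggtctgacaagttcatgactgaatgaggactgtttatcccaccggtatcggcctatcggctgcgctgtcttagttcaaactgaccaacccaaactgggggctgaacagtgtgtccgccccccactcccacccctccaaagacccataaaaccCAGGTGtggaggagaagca

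The RefSeq table matched 5 of the 10 members, namely Snai1, Twist1, Zeb2, Epcam and Vim, while Snai2, Zeb1, Cdh1, Cdh2 and Fn1 were not matched. Snai1 held 1 E-box, 126 bases before its start. Epcam held 2, at 187 and 19 bases before its start. The windows of Twist1, Vim and Zeb2 held none. Of 32851 promoter windows of this length, 17.2% held the motif. TAATTA, a homeodomain core, was in 4.84% of all windows and CTTTGA, the TCF-LEF core, in 13.8%, and neither was in a window of these members on either strand. A match describes the letters of the window and not a bound site.

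Snai1, Twist1, Vim and Fn1 fell in EVX1-Δfs EBs, to between 0.50 and 0.63 of their wildtype level. The epithelial genes Cdh1 and Epcam, and Cdh2, Zeb1 and Zeb2, did not pass the test. Thus 4 of the 9 members tested were called lower and 0 higher, where 2.95% of all 13136 genes tested were called lower, 2.08% higher and 5.02% in either direction. Over all genes this was 387 lower and 273 higher, and 325 lower and 370 higher under upper-quartile scaling, with the same 4 members lower under both. Other fits kept fewer members lower. The planned removal of library trends on GC content and exon length kept 3, and 2 with the replicate number as a block as well. Without EVX1-Δfs replicate 1, 3 members stayed lower. The median log2 fold change of the 9 members was -0.66, beside 0.000216 over all genes tested. All 9 were read from 1 fit over the whole table with limma, on log2(normalized count + 1), and a gene was called at a Benjamini-Hochberg adjusted p under 0.05. In these bulk samples, fewer cells of a type and less RNA per cell cannot be told apart.

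**Figure D1:**
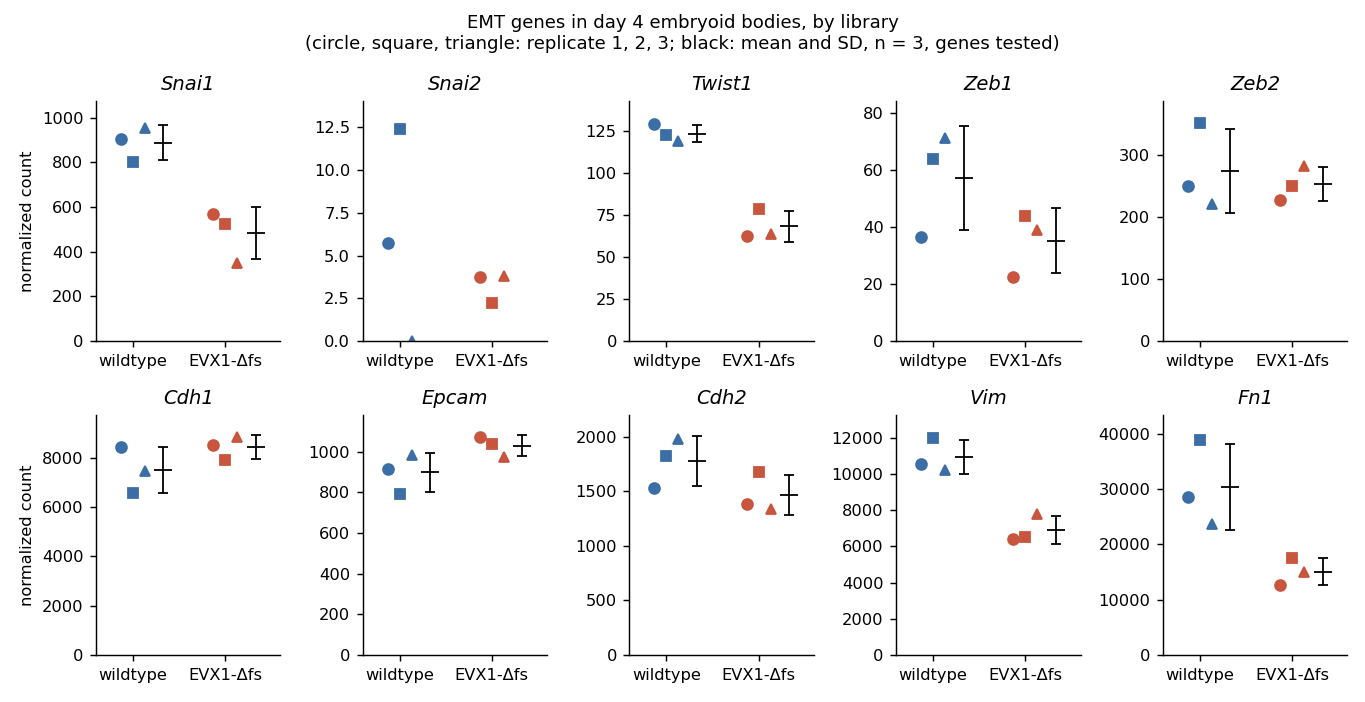
Normalized counts of the 10 EMT genes in each day 4 EB library, wildtype in blue and EVX1-Δfs in red, with a linear axis from 0 for each gene. Black bars give the mean and SD of 3 libraries for the 9 genes tested. All 3 EVX1-Δfs libraries lie below all 3 wildtype libraries for Snai1, Twist1, Vim and Fn1, and the groups overlap for the other genes.

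The libraries held 7597879 to 9914471 reads assigned to genes, and 15998 to 16479 genes had a read. Between 1.87% and 4.95% of reads came from Rn45s, a ribosomal RNA precursor. The transcript of the edited gene, Evx1, had normalized counts of 2358, 2176 and 2400 in wildtype and 2354, 2516 and 2012 in EVX1-Δfs. A frameshift alters the protein, so that level does not check the genotype labels.

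Snai1 encodes the zinc finger repressor that drives EMT in the streak, and it lies at chr2:167363695-167368314 on the plus strand of NCBIM37. Its normalized counts were 905, 801 and 954 in wildtype and 571, 526 and 351 in EVX1-Δfs. No EVX1-Δfs library reached the lowest wildtype library, and EVX1-Δfs replicate 3 was the lowest of all. The mean fell from 887 ± 78.1 to 482 ± 116 (SD, n = 3 each), a log2 fold change of -0.90 ± 0.15 (SE, 95% interval -1.21 to -0.60, limma adjusted p = 0.00116). The same-numbered pairs differed by -0.66, -0.61 and -1.44 on the log2 scale. Snai1 is named in the text of the study, so its call is not independent of the reason the gene was looked at.

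Twist1, at chr12:34642536-34644682 on the plus strand, encodes a basic helix-loop-helix factor of mesoderm and neural crest mesenchyme. Libraries of wildtype EBs had normalized counts of 129, 123 and 119 and those of EVX1-Δfs EBs 62.6, 78.9 and 63.8. The wildtype libraries lay close together, at 124 ± 5.08 (SD, n = 3), and every EVX1-Δfs library was below them. The log2 fold change was -0.85 ± 0.18 (SE, 95% interval -1.23 to -0.47, limma adjusted p = 0.0111). Without EVX1-Δfs replicate 1 the log2 fold change of Twist1 was -0.79 and was not called (adjusted p = 0.0506). After removal of library trends on GC content and exon length it was -0.66 and not called (adjusted p = 0.0585), and in the form of that correction that kept gene means it was -0.68 and called (adjusted p = 0.0451). With the block added to the correction it was called in neither form (adjusted p = 0.0936 and 0.0713). Exons of Snai1 and Twist1 were the richest in GC among the members, at 59.8% and 59.7%. Across 12977 genes, log2 fold change and exon GC content had a Spearman rho of -0.461, a description over genes that share the same libraries. With those trends removed, Snai1 kept its call in both forms of the correction tried, at a smaller change. Its log2 fold change was -0.71 (limma adjusted p = 0.0101), and -0.73 with gene means kept (limma adjusted p = 0.00314). With the block added the adjusted p was 0.0378 and 0.0166.

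The ZEB genes encode zinc finger and homeodomain repressors of Cdh1. Zeb1, at chr18:5591858-5775465 on the plus strand, had normalized counts of 36.4, 63.7 and 71.0 in wildtype and 22.4, 44.0 and 39.1 in EVX1-Δfs. The lowest wildtype library lay within the EVX1-Δfs range, although EVX1-Δfs was the lower in each of the 3 same-numbered pairs. Zeb1 gave a log2 fold change of -0.68 ± 0.29 (SE, 95% interval -1.28 to -0.08, limma adjusted p = 0.162), so a fall as large as that of Twist1 lies inside the interval. Zeb1 rested on 24 to 72 reads per library. With GC and length trends removed its fall was larger, at -0.878, and at -0.896 with gene means kept. It was called in neither form (limma adjusted p = 0.166 and 0.113).

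Zeb2, at chr2:44839154-44972915 on the minus strand, had normalized counts of 251, 352 and 222 in wildtype and 228, 250 and 283 in EVX1-Δfs. The groups overlapped throughout, and wildtype replicate 2 stood highest. The log2 fold change was -0.09 ± 0.16 (SE, 95% interval -0.43 to 0.24, limma adjusted p = 0.772), and it turned to 0.10 without wildtype replicate 2. With GC and length trends removed it was -0.36, and -0.38 with gene means kept, and it was called in neither. Exons of Zeb2 overlap those of Gm13476 on the opposite strand over 458 bases and those of AL929120.1 on the same strand over 5 bases, and how such reads were divided is not known here. Snai2, which encodes the SNAI1 relative known as Slug, lies at chr16:14705945-14709488 on the plus strand. It had 6, 14 and 0 reads in wildtype and 4, 2 and 4 in EVX1-Δfs, which was too few to test.

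Cdh1 encodes E-cadherin, the adherens junction protein of epithelia, and lies at chr8:109127251-109194146 on the plus strand. Wildtype EBs had normalized counts of 8427, 6563 and 7452, against 8529, 7898 and 8845 in EVX1-Δfs. EVX1-Δfs was the higher in each of the 3 same-numbered pairs, while wildtype replicate 1 lay within the EVX1-Δfs range. EVX1-Δfs over wildtype, the log2 difference of Cdh1 was 0.18 ± 0.12 (SE, 95% interval -0.08 to 0.43, limma adjusted p = 0.403). The upper end of that interval is 1.35 times the wildtype level.

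Epcam, at chr17:88035319-88050446 on the plus strand, encodes an epithelial adhesion protein also made by pluripotent cells. Its normalized counts were 918, 795 and 984 in wildtype and 1075, 1041 and 973 in EVX1-Δfs. EVX1-Δfs replicate 3 was below wildtype replicate 3, and the other pairs went the other way. The log2 fold change was 0.20 ± 0.12 (SE, 95% interval -0.04 to 0.44, limma adjusted p = 0.305). The table therefore gave no called change of either epithelial member, with intervals that allow a modest rise of each.

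Cdh2 encodes N-cadherin, the cadherin of mesoderm and neural tissue, and lies at chr18:16747386-16967755 on the minus strand. Cdh2 had normalized counts of 1528, 1824 and 1976 in wildtype and 1381, 1679 and 1340 in EVX1-Δfs. EVX1-Δfs was the lower in each of the 3 same-numbered pairs, but wildtype replicate 1 was below EVX1-Δfs replicate 2. For Cdh2 the log2 fold change was -0.28 ± 0.12 (SE, 95% interval -0.53 to -0.02, limma adjusted p = 0.178). With GC and length trends removed the fall was larger, at -0.425, and at -0.443 with gene means kept. Cdh2 was called in neither form (limma adjusted p = 0.0967 and 0.0557).

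Vim encodes vimentin, the intermediate filament protein of mesenchyme, and lies at chr2:13495554-13504453 on the plus strand. Its normalized counts were 10578, 12008 and 10216 in wildtype and 6435, 6525 and 7804 in EVX1-Δfs. The groups were well apart, the highest EVX1-Δfs library lying below the lowest wildtype library. The mean fell from 10934 ± 948 to 6921 ± 766 (SD, n = 3 each), a log2 fold change of -0.66 ± 0.12 (SE, 95% interval -0.92 to -0.40, limma adjusted p = 0.0038). Vim was not called with the replicate as a block and GC and length trends removed together, where its log2 fold change was -0.54 (adjusted p = 0.0936), or -0.56 with gene means kept (adjusted p = 0.052).

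Fn1, at chr1:71632094-71699774 on the minus strand, encodes fibronectin, the matrix glycoprotein on which mesoderm cells migrate. Its normalized counts were 28666, 38971 and 23623 in wildtype and 12593, 17490 and 15046 in EVX1-Δfs. Wildtype replicate 2 was the highest library and the wildtype spread was wide, with a coefficient of variation of 25.7%, yet no library of the groups overlapped. The log2 fold change was -1.00 ± 0.17 (SE, 95% interval -1.35 to -0.65, limma adjusted p = 0.00149), the largest among the 9 members tested. Exons of Fn1 overlap those of Apol7d on the opposite strand over 292 bases. In all, 4 of the 9 members had groups that did not overlap with EVX1-Δfs lower, and 0 with EVX1-Δfs higher, where 14.7% and 12.2% of all genes tested did so.

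**Figure D2:**
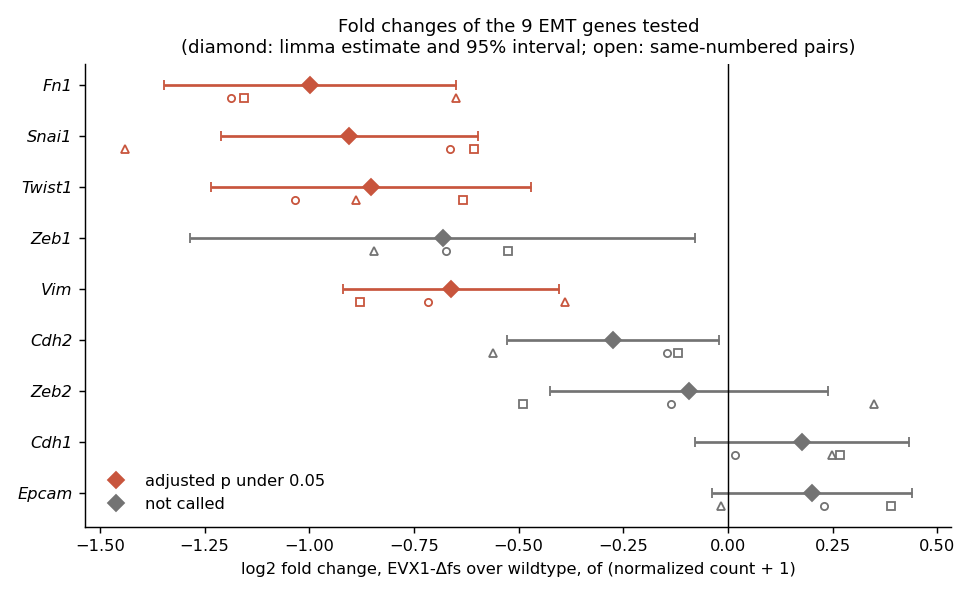
Log2 fold change, EVX1-Δfs over wildtype, of the 9 EMT genes tested, with the limma estimate and 95% interval (diamond and bar) and the same-numbered pairs (open circle, square and triangle for replicates 1, 2 and 3). Red marks an adjusted p under 0.05. Fn1, Snai1, Twist1 and Vim lie between -1.00 and -0.66 with every pair below 0. Zeb1 and Cdh2, at -0.68 and -0.28, also have every pair and the whole interval below 0 but were not called. Cdh1 and Epcam lie at 0.18 and 0.20 with intervals that cross 0.

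Per length of annotated exon, the members spanned a wide range of levels. In wildtype EBs the order was Vim at 4683 normalized counts per kb, Fn1 at 3646, Cdh1 at 1636, Snai1 at 547, Epcam at 440, Cdh2 at 220, Twist1 at 76.6, Zeb2 at 17.9, Zeb1 at 5.87 and Snai2 at 2.98. The lowest library of each gene lay above the highest library of the next, except for Vim with Fn1 and Zeb1 with Snai2. In EVX1-Δfs the mean of Cdh1, at 1842, stood with that of Fn1, at 1803, and their libraries overlapped, whereas in wildtype the lowest Fn1 library, at 2831, was above the highest Cdh1 library, at 1842. Epcam and Snai1 changed places. Snai1 was above Epcam in wildtype, with libraries of 494 to 588 against 389 to 482 per kb, and below it in EVX1-Δfs, with 216 to 352 against 477 to 527. These orders are descriptions and were not tested. They rest on the summed length of all annotated exons, which can be longer than the transcripts made in these cells.

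**Figure D3:**
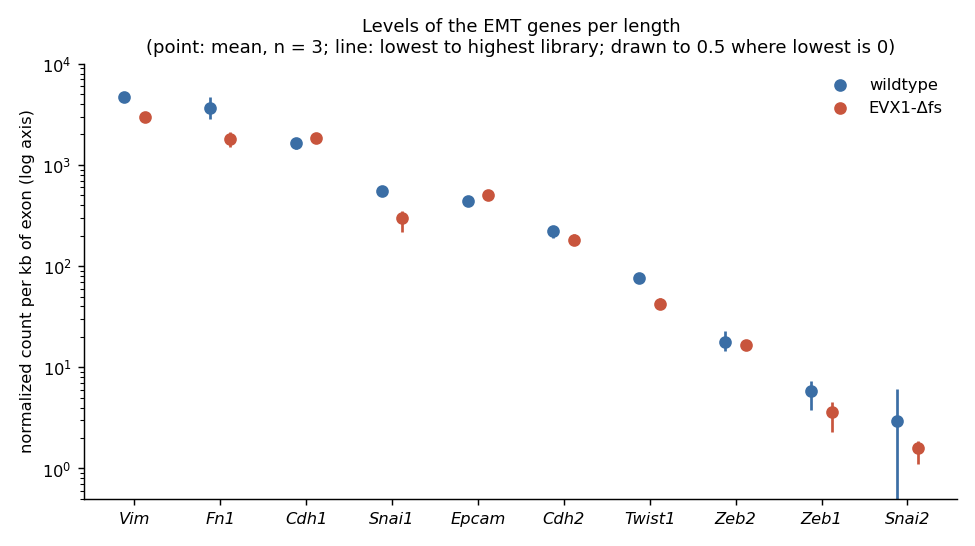
Normalized count per kb of annotated exon for each EMT gene on a log axis, as the mean of 3 libraries (point) and the range from the lowest to the highest library (line), wildtype in blue and EVX1-Δfs in red. Vim stands highest and Zeb1 and Snai2 lowest in both genotypes, Fn1 is above Cdh1 in wildtype and overlaps it in EVX1-Δfs, and Snai1 is above Epcam in wildtype and below it in EVX1-Δfs.

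The balance of mesenchymal to epithelial transcripts within a library is independent of the scaling between libraries, but not of library trends on GC content. Vim stood at 126, 183 and 137 normalized counts per 100 of Cdh1 in wildtype and at 75.4, 82.6 and 88.2 in EVX1-Δfs. Fn1 stood at 340, 594 and 317 per 100 of Cdh1 in wildtype and at 148, 221 and 170 in EVX1-Δfs. Neither ratio overlapped between the groups. Snai1 per 100 of Cdh1 was 10.7, 12.2 and 12.8 in wildtype and 6.69, 6.65 and 3.96 in EVX1-Δfs, again without overlap. The cadherin ratio, Cdh2 per 100 of Cdh1, was 18.1, 27.8 and 26.5 in wildtype and 16.2, 21.3 and 15.2 in EVX1-Δfs, and wildtype replicate 1 lay inside the EVX1-Δfs range. A ratio shows unequal change of its genes and not which of them moved. Vim, Fn1 and Snai1 were already separate between the groups on their own, and Cdh1 was not lower in EVX1-Δfs. The separation of their ratios therefore restates those values and is not further evidence.

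**Figure D4:**
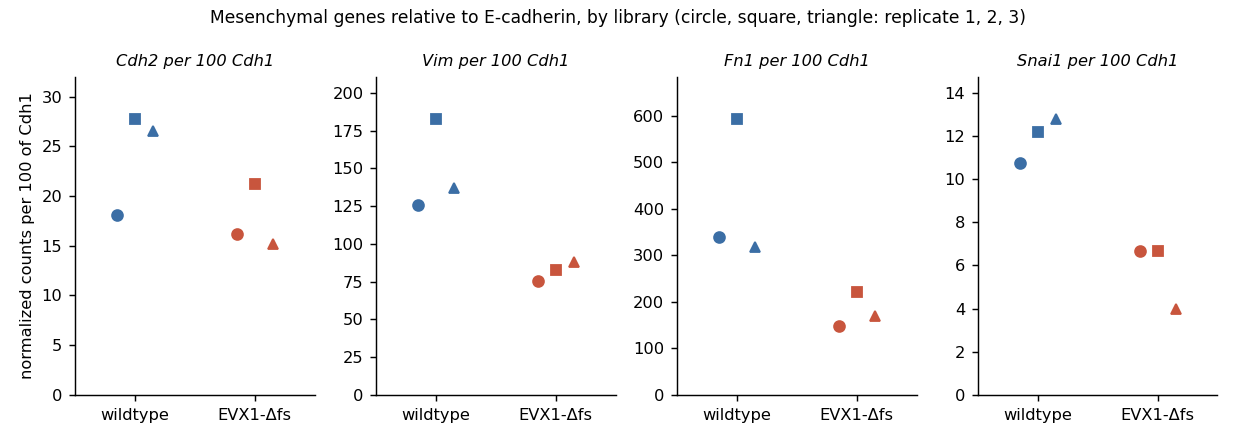
Normalized counts of Cdh2, Vim, Fn1 and Snai1 per 100 of Cdh1 in each library, on linear axes from 0, with circle, square and triangle for replicates 1, 2 and 3. The Vim, Fn1 and Snai1 ratios are lower in all 3 EVX1-Δfs libraries than in any wildtype library, and the Cdh2 ratios overlap.

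Other genes of the transition were read from 4 lists that hold 113 genes, 106 of them tested. Of these, 13 were called lower and 3 higher, with a median log2 fold change of -0.06, where 2.95% of all genes tested were lower and 2.08% higher. The count of those higher was near that background. The calls were uneven between the lists, and most of those lower were in the list of gastrulation signals and effectors. That difference between lists was not tested.

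Among 19 other EMT transcription factors, 16 were tested, 0 were called in either direction by limma, and the median log2 fold change was -0.05. The most abundant were Tcf3, an E protein partner of TWIST1, at -0.24 (limma adjusted p = 0.186), and Sox4, at -0.36 (limma adjusted p = 0.103). Ovol2, a repressor of Zeb1 that keeps the epithelial state, is named after its values were seen. Its normalized counts were 62.2, 56.6 and 69.9 in wildtype and 86.8, 98.1 and 111 in EVX1-Δfs. These groups did not overlap, but the difference was not called (log2 fold change 0.64, limma adjusted p = 0.0581). In this list 4 genes had groups that did not overlap with EVX1-Δfs higher, Klf8 and Ovol2 among them, and 3 with EVX1-Δfs lower. Of all genes tested, 12.2% and 14.7% did so.

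Among 36 epithelial junction and keratin genes, 1 was called lower and 2 higher, counts near the background over all genes, and the median log2 fold change was 0.07. Ocln, the tight junction protein occludin, rose from 57.9 ± 2.40 to 103 ± 11.1 normalized counts (log2 fold change 0.81, limma adjusted p = 0.0186). Cdh3, P-cadherin, rose by 0.40 on the log2 scale (limma adjusted p = 0.0482), and Krt8, a keratin of simple epithelia, fell by 0.41 (limma adjusted p = 0.0447). With the replicate as a block none of these 3 was called, with adjusted p = 0.0515 for Ocln, 0.0864 for Cdh3 and 0.0844 for Krt8. Ocln was also lost without EVX1-Δfs replicate 1 (adjusted p = 0.0585) or 3 (0.11), and Cdh3 without any 1 of the 6 libraries (0.0574 to 0.203). Krt8 was lost without any single library other than wildtype replicate 3 (0.061 to 0.198). Krt8 was also not called under upper-quartile scaling (0.0589) or with GC and length trends removed, where its log2 fold change was -0.25 (0.264). Ocln was not called with those trends removed (0.0682). Ctnnb1, β-catenin, the most abundant gene of the list, stood at -0.11 (limma adjusted p = 0.607).

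Among 33 mesenchymal and matrix genes, 29 were tested, 2 were called lower and 0 higher, and the median log2 fold change was -0.17. The 2 were the chains of type I collagen. Col1a1 had normalized counts of 386, 725 and 254 in wildtype and 99.9, 157 and 141 in EVX1-Δfs. It was lower in every EVX1-Δfs library (log2 fold change -1.66 ± 0.24 SE, limma adjusted p = 0.000332). Col1a2 moved the same way by less, with a log2 fold change of -0.81 (limma adjusted p = 0.00685). The abundant integrin Itgb1 and the matricellular gene Cyr61 stood at 0.06 and 0.10 (limma adjusted p = 0.79 and 0.683).

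Among 25 gastrulation inputs and effectors, 10 were called lower and 1 higher, and the median log2 fold change was -0.31. Msgn1, a regulator of presomitic mesoderm, had normalized counts of 201, 224 and 204 in wildtype and 55.1, 112 and 80.0 in EVX1-Δfs. Its log2 fold change was -1.39 ± 0.20 (SE, limma adjusted p = 0.0003). Mesp1, a factor of nascent mesoderm that acts upstream of EMT factors, stood at -1.02 (limma adjusted p = 0.000181). Tbx6 and Mesp2, both of paraxial mesoderm, stood at -1.00 and -0.95 (limma adjusted p = 0.0109 and 0.0141), and T, brachyury, at -0.58 (limma adjusted p = 0.0122). Fgf4, a ligand of the epiblast and streak, rose by 0.60 (limma adjusted p = 0.0221), and the receptor Fgfr1, through which FGF signals maintain Snai1 in the streak, stood at -0.06 (limma adjusted p = 0.774). With the replicate as a block Mesp2, T and Fgf4 were not called, with adjusted p = 0.0628, 0.0566 and 0.0579. Tbx6 and Mesp2 were not called with GC and length trends removed (0.0563 and 0.0682), and both were called with gene means kept (0.0382 and 0.0376). With the block added, Tbx6 was called in neither form (0.105 and 0.0745). Calls were also lost for Mesp2 without wildtype replicate 3 (0.0629) or EVX1-Δfs replicate 3 (0.0796), and for T without EVX1-Δfs replicate 1 (0.0747). Fgf4 was lost without wildtype replicate 1 (0.0693) or EVX1-Δfs replicate 1 (0.098) or 3 (0.0933). Over the 4 lists the block left 8 called lower and 0 higher. Several genes of the gastrulation list, among them Mixl1, Mesp1, T and Bmp4, are discussed in the study's text, so its count is not independent evidence of direction.

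**Figure D5:**
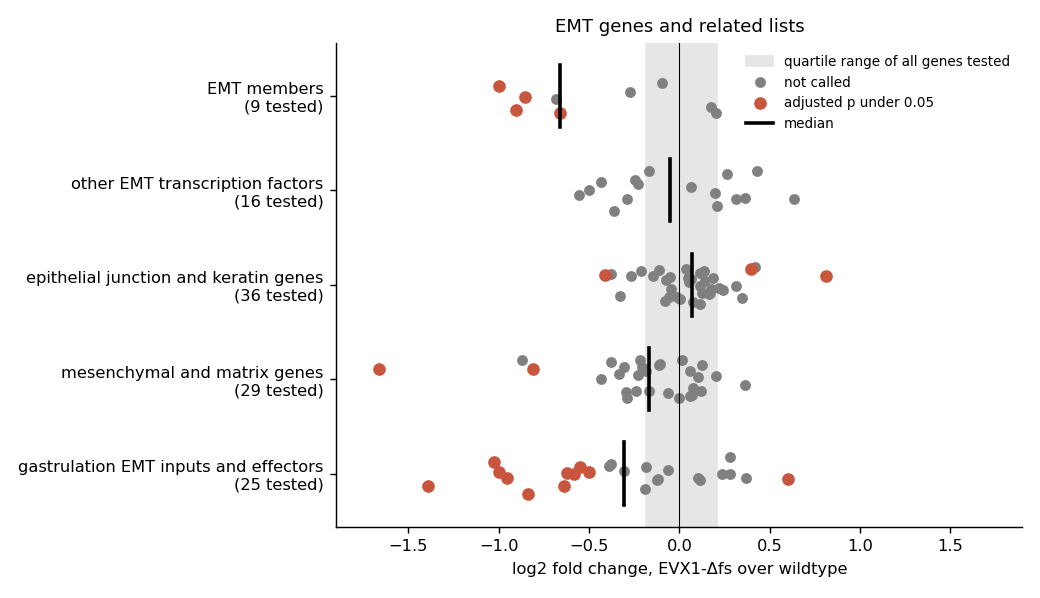
Log2 fold change, EVX1-Δfs over wildtype, of each tested gene of the EMT members and the 4 related lists, with called genes in red, the median of each list as a black line and the quartile range of all genes tested shaded from -0.19 to 0.21. The list medians lie at -0.66, -0.05, 0.07, -0.17 and -0.31 from top to bottom, and red points are most numerous in the bottom list.

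Marker lists of cell types did not all move in the direction of the members. Over all genes tested, 2.95% were called lower and 2.08% higher. Of 8 primitive streak and nascent mesoderm genes, 5 (Mesp1, Mixl1, T, Wnt3 and Eomes) were called lower. All 5 are also in the list of gastrulation signals and effectors, so these calls were already counted there. The summed normalized counts of the 8 were 14967 to 18042 in wildtype and 10368 to 13334 in EVX1-Δfs. Of 8 haematoendothelial genes, Etv2, Kdr and Lmo2 were called lower, with sums of 3054 to 4029 and 1799 to 2041. Their part in the lower Snai1, Twist1, Vim and Fn1 was not tested. Of 6 definitive endoderm genes, Cer1, Foxa2 and Sox17 were called higher and Cxcr4 lower, with sums of 854 to 1104 and 991 to 1440 that overlapped. The mean of Cer1 rose from 33.9 to 377. Gata4 and Gata6 had log2 fold changes of -0.38 and -0.38 and were not called (limma adjusted p = 0.112 and 0.146). Of 7 epiblast and pluripotency genes, Fgf5 was called higher. The median log2 fold change of the 7 was 0.40, with 6 above 0 and 1 below. In 3 genes the groups did not overlap with EVX1-Δfs higher, and in 0 with EVX1-Δfs lower. Of all genes tested, 12.2% and 14.7% did so. Nanog and Sox2, named after their values were seen, stood at 0.40 and 0.41 and were not called (limma adjusted p = 0.055 and 0.056). The sums, 13110 to 20512 and 16907 to 21517, overlapped and were mostly Pou5f1 and Dnmt3b.

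Of the other marker lists, only that of fibroblast genes held called genes. The fibroblast list of 7 genes shares Col1a1 and Col1a2 with the matrix list, and only these 2 were called, both lower, with sums of 671 to 1188 in wildtype and 502 to 529 in EVX1-Δfs. Its defining genes Lum and Dcn had at most 1 and 2 reads in any library. Of 8 visceral endoderm genes 3 were tested and 0 called by limma, with sums of 5227 to 6457 and 4678 to 5017. Nearly all of each sum was Apoe, at 5191 to 6399 in wildtype and 4626 to 4962 in EVX1-Δfs. Afp, Ttr and Apoa1 had at most 2, 2 and 4 reads, so the sums describe 1 gene and not the list. Of 6 neurectoderm genes 3 were tested and 0 called by limma, with sums of 2847 to 3763 and 3330 to 3669. These sums were nearly all Nes, which is also in the matrix list, and Zic2. Sox1, Zic1 and Hes5 had at most 5, 4 and 2 reads.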

How the data were processed

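The authors sequenced selected mRNA on an Ion Proton. As the methods state, TopHat2 followed by TMAP placed the reads on mm9, and HTSeq with its standard settings gave the count for each gene. Versions are not given in the sources used here. The deposited signal is a normalized count: the reads of each gene divided by 1 factor per library. 100% of values came out as whole reads within 0.001, and the factors were within 0.00564% of those of DESeq2. Because the values were normalized, limma (3.58.1, R 4.3.3, with a mean-variance trend) was fitted to log2(normalized count + 1) over 13136 genes with at least 10 in at least 3 libraries. This scale understates the change of low genes. DESeq2 (1.42.0) and edgeR (4.0.16) on the recovered reads were alternatives, as were other scalings, pseudocounts and filters, removal of GC and length trends, and leaving out each library. The limma fits with and without the block, the DESeq2 and edgeR fits and the planned trend removal were tested on simulated data. The trend removal that kept gene means and the other scalings were not. The simulated counts had 1 dispersion for all genes, no effect of a shared day, and a GC trend planted in 1 library. They therefore cannot show whether the block or the trend removal suits these libraries.

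Genes were placed with GENCODE vM1 on NCBIM37, which matched 22013 of 23353 symbols (94.3%), 806 through an older symbol. The replicate number was taken to mark a shared day, because the submitters' design text and treatment protocol describe side by side differentiations begun together, each replicate on its own day. No label ties single libraries by number. Deviations from group means correlated at 0.111, 0.00933 and -0.101 between same-numbered libraries over 13136 genes.

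All 10 members are named. Of each related list, up to 4 called genes per direction with the largest change and the 2 most abundant genes are named, and of marker lists the called genes and those at or near 0. The members and lists were chosen with earlier results of these data known. The trend removal was run in 2 forms. The planned form took out each library's whole trend, and the other, chosen after the planned one had been run, kept each gene's mean level.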

Additional observations from a re-analysis of the deposited data

How the results depend on the processing

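Depth limits Snai2, Zeb1 and the lowest markers, and 3 libraries per genotype of 1 clone limit every test. Over 17 alternatives, Snai1 and Fn1 kept their calls in all 17, Vim in 15 and Twist1 in 13, and Zeb1, Zeb2, Cdh1, Cdh2 and Epcam were called in none. Of 153 values of members, 146 kept direction and side of the threshold, 6 lost their call and 1 turned sign. Of 289 values of named genes in the related lists, 237 kept both, 46 lost their call and 6 turned sign. With the replicate as a block, 4 members stayed lower (adjusted p = 0.0106 to 0.039), all genes called went from 387 lower and 273 higher to 146 and 76, and the related lists from 13 lower and 3 higher to 8 and 0. With GC and length trends removed in the planned form, Twist1 was lost (3 members lower), all genes gave 118 lower and 80 higher, and the lists 8 lower. With the block and that form, 2 members stayed lower (Twist1 and Vim both at 0.0936), all genes gave 73 and 34, and the lists 5 and 0. With gene means kept, a form chosen after seeing the data, all genes gave 182 and 102 and 4 members stayed lower. Adding the block to it gave 130 and 67, 2 members lower (Twist1 at 0.0713, Vim at 0.052) and 7 lower in the lists. Without 1 library, all genes gave 138 lower (without EVX1-Δfs replicate 1) to 355 and 77 higher (without EVX1-Δfs replicate 3) to 332. Lower calls also fell by over 1.5 times without EVX1-Δfs replicate 3 (142) or wildtype replicate 1 (232) or 3 (240), and higher ones without EVX1-Δfs replicate 1 (89) or wildtype replicate 3 (133). The members gave 3 (without EVX1-Δfs replicate 1) to 4 lower, and the lists 8 (without EVX1-Δfs replicate 1) to 14 lower and 0 (without EVX1-Δfs replicate 1 or 3) to 3 higher, with 1 without wildtype replicate 1. Upper-quartile scaling gave 325 lower and 370 higher over all genes. Zeb2 ranged from -0.23 to 0.10 without 1 library (0.0986 without wildtype replicate 2), Itgb1 from -0.0162 (without EVX1-Δfs replicate 3) to 0.133, and Cyr61 from -0.00908 (without wildtype replicate 3) to 0.256. Itgb1 also turned to -0.0521 with trends removed and -0.0696 with gene means kept, with or without the block. The causes were not tested.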
